A study of Homo sapiens with 18 samples.

Results

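Open chromatin was compared between cytokine-conditioned colon fibroblasts that had been exposed to belinostat, an inhibitor of histone deacetylases, and conditioned fibroblasts that had received only its solvent, dimethylsulfoxide (DMSO). The comparison used 12 of the 18 ATAC-seq libraries of the study, 6 with belinostat and 6 with DMSO, and the remaining 6 came from unstimulated cells, whose levels are given beside a few members. All libraries came from Ccd18-Co, an established line of human intestinal fibroblasts, so that donors did not differ. Both compared groups had passed through 3 pulses of TNF, OSM and IL-17A at 10 ng/ml each together with IL-1β at 0.1 ng/ml. A pulse was 72 h of cytokines and 96 h of recovery. After 1 week of rest the cells received DMSO or 250 nM belinostat for 5 days in serum-free medium, and nuclei were taken 2 weeks after that. The belinostat and IL-1β doses are those of the sample labels. The study's text names a higher belinostat dose for its assays in general and, in places, a lower IL-1β dose. Which of these doses the libraries received is therefore not certain. Taken 2 weeks after the exposure, the libraries describe what was left of it, not the chromatin during it. A single cell line without immune or epithelial neighbours was studied, and the titles do not say whether the 6 libraries of a group came from separate cultures, so the p-values below measure the spread between these libraries, which may be technical.

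Histone deacetylases remove acetyl groups from histone tails, and acetylated histones mark open enhancers and promoters. Inhibitors of these enzymes raise histone acetylation while they are present, and the enzymes are also recruited by repressor complexes. In ATAC-seq a transposase cuts accessible DNA, so the number of fragments in a peak is a measure of how open that stretch is. Inflammatory fibroblasts of the gut are known for secreting chemokines, IL-6 family cytokines and matrix-degrading enzymes under NF-kB, AP-1 and CEBP factors. TEAD factors with their partners YAP and TAZ, RUNX factors and the basic helix-loop-helix factor TWIST1 are regulators of mesenchymal enhancers.

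Among the peaks past the test more fell than rose, and most of them lay in introns and between genes. Of 334857 peaks, 1232 rose and 3903 fell with both ways of scaling the libraries, called opened and closed from here on. This order belongs to the adjusted calls. At an unadjusted p under 0.05 in edgeR's test 27265 peaks were higher and 25067 lower with the one scaling (TMM) and 27045 and 24840 with the other (loess offsets), and the median log2 fold change over all peaks was 0.0074 and 0.019. In bulk libraries, fewer cells with an open site and less opening per cell cannot be told apart. The chemokine genes CCL11 and CCL7 and the gene of the antiangiogenic factor SERPINF1 lost accessibility, while the start of VCAN, the gene of a matrix proteoglycan, and a peak just upstream of HBB, the beta-globin gene, gained it. The calls of CCL7 and of the VCAN start did not hold with every library left out. Closed distal peaks more often held the AP-1 and CEBP words and the E-box CAGATG, and opened distal peaks the TEAD word. These are shares of peaks. Tested over libraries, CAGATG alone of these words passed on the counts, AP-1 also on loess-scaled counts, and CEBP and TEAD on neither.

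The letters below are the middle 300 bases of 6 of these peaks, from hg38 on its forward strand, and are shown because they carry the words that the groups of opened and closed peaks differ in. Capitals mark matches to any of 23 consensus words on either strand, among them AP-1 (TGANTCA, its own reverse complement), TEAD (GGAATG), RUNX (TGTGGT), CEBP (TTGCNNAA) and the E-box CAGATG listed for TWIST-type factors. The first pair rose after belinostat, in the flank of the TMCC2 start (chr1:205226483-205226782) and in an intergenic stretch whose nearest gene start was that of COA7 (chr1:52669753-52670052). The other 4 fell, in an intron of a long non-coding RNA near CDON (chr11:126124371-126124670), in introns of KIRREL3 (chr11:126459717-126460016) and CLMN (chr14:95206561-95206860), and between genes, 42546 bp from the start of the antisense gene MATN1-AS1 and with MATN1 as the nearest protein-coding gene (chr1:30675808-30676107).
TMCC2 flank, rose: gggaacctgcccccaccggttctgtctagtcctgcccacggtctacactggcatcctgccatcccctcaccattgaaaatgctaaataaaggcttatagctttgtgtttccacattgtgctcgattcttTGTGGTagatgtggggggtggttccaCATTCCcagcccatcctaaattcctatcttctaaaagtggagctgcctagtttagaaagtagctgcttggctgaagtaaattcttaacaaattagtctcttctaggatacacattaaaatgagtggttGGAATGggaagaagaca
COA7 intergenic, rose: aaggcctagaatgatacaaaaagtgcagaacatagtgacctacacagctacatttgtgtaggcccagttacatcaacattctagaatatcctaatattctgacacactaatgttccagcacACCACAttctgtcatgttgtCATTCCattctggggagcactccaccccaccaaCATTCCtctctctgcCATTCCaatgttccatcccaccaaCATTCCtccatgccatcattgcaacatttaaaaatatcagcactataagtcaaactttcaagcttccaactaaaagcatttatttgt
CDON lncRNA intron, fell: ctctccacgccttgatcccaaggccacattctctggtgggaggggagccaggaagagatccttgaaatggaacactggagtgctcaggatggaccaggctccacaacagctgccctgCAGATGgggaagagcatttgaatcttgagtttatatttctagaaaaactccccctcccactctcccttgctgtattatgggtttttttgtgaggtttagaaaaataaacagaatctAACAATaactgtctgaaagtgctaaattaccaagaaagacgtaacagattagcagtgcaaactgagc
KIRREL3 intron, fell: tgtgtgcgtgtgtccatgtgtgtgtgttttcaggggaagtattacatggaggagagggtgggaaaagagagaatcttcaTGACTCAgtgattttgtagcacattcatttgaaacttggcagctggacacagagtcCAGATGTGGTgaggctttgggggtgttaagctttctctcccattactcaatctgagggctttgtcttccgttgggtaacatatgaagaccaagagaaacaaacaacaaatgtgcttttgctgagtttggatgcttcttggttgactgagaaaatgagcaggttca
CLMN intron, fell: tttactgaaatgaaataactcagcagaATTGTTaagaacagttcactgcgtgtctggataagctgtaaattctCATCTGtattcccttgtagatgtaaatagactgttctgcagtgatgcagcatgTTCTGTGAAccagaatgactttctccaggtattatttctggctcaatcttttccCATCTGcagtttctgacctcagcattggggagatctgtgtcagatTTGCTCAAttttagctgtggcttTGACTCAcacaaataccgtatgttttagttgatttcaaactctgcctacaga
MATN1 intergenic, fell: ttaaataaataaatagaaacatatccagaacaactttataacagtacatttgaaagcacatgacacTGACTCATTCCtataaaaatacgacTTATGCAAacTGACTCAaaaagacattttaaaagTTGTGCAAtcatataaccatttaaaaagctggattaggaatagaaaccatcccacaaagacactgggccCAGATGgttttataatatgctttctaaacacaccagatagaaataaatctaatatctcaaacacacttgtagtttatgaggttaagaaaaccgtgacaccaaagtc
The COA7 stretch held 5 matches, of which 4 were TEAD words, and the TMCC2 stretch held a pair of TEAD words and a RUNX word. In KIRREL3 the E-box and the RUNX word ran into each other, and in MATN1 an AP-1 word ran into a TEAD word. Of the 16 peaks with the largest changes named further on, 14 were read in this way. The E-box CAGATG was in 7 of the 8 that fell and in 0 of the 6 that rose. RUNX was in 1 and 4, TEAD in 2 and 3, AP-1 and CEBP each in 3 and 1, and the SOX word (AACAAT) in 3 and 0. Over all distal peaks CAGATG was in 27.0%, RUNX in 23.6% and TEAD in 22.0%. AP-1 was in 18.7% of them, CEBP in 14.7% and SOX in 12.8%. A match is a description of letters, not a bound site.

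Depth differed between the groups, and of the measures of signal strength only the share of the 1000 strongest peaks did, unadjusted. The DMSO libraries held 7209582 ± 533946 counts in peaks (SD, n = 6) and the belinostat libraries 5527244 ± 706505 (SD, n = 6), without overlap (exact two-sided permutation test, p 0.00216, the smallest that 6 against 6 libraries can give). The 1000 strongest peaks took 6.61% ± 0.25 of the counts in DMSO and 6.03% ± 0.42 in belinostat libraries (exact p 0.0238, n = 6 each). The library belinostat 1 stood apart, with 5.35% of its peaks at 0 against 0.505% to 2.24% in the other belinostat libraries. The biological coefficient of variation was 11.2% among DMSO and 14.8% among belinostat libraries. The summed levels of markers of other cell types at their gene starts were below that of fibroblast markers in both groups, over unlike numbers of genes. The summed level of 9 fibroblast markers was 158 to 192 CPM (counts scaled to the library's counts in peaks) with DMSO and 147 to 198 with belinostat. That of 5 immune markers was 24.4 to 35.6 and 30.3 to 37.0, with PTPRC, SPI1 and LYZ among the 7 without any peak at their start. Of these 5, CD3E, CD3D and ITGAM were each under 1 CPM, so CSF1R and CD14 held nearly all of the immune sum. For 9 epithelial markers the range was 29.8 to 37.9 and 32.8 to 43.0, with CDH1 under 1 CPM, for 8 endothelial markers 20.2 to 23.6 and 21.1 to 30.0, with no start peak of CDH5, and for 3 glial markers 7.28 to 9.71 and 6.07 to 10.7, with none of SOX10.

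Weak peaks were higher and strong peaks lower in the belinostat libraries when each library was scaled by a single factor. This scaling used the trimmed mean of M values (TMM). Peaks were put in 20 bins by abundance, with bin 1 the weakest. The median log2 fold change of belinostat over DMSO was 0.15 in bin 1, highest at 0.27 in bin 3, and -0.16 in the strongest. Loess offsets, which give each library its own curve of scaling against abundance, left medians of -0.02 and 0.02 in the weakest and the strongest bin. In bin 3 they left 0.16, so the trend was not fully removed among weak peaks. Both scalings are therefore printed beside each result. In edgeR's quasi-likelihood test with Benjamini-Hochberg adjustment over all peaks, 1583 peaks (0.473%) rose and 4986 (1.49%) fell at an adjusted p under 0.05 with TMM. With loess offsets 2503 (0.747%) rose and 4139 (1.24%) fell. The overlap, in the same direction, was 1232 opened (0.368%) and 3903 closed peaks (1.17%), and no peak was called in opposite directions. The share of higher peaks among the calls was 24.1% with TMM and 37.7% with loess. Without belinostat 1 the TMM counts were 2807 and 8323, and without DMSO 2 they were 681 and 2896.

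**Figure D1:**
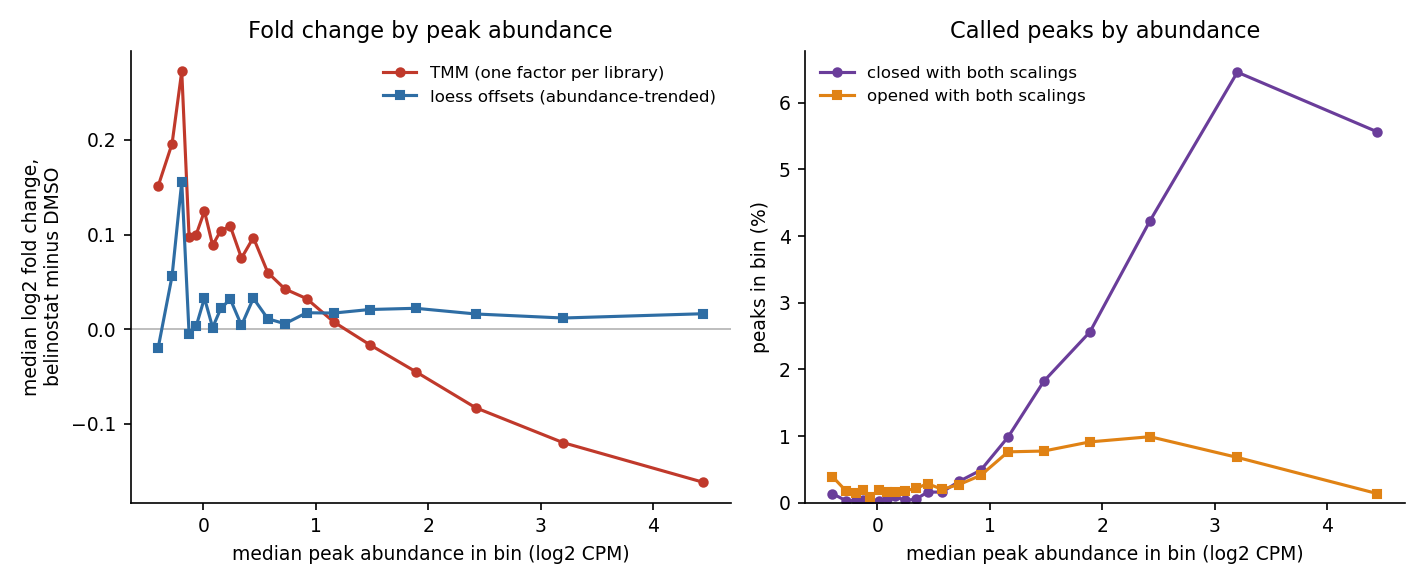
Change against abundance for all peaks in 20 bins of equal size, ordered by average log2 CPM on the x axis. The left panel gives the median log2 fold change (belinostat over DMSO) with TMM and with loess offsets, the right panel the percent of each bin that was opened or closed with both. With TMM the median is 0.15 in bin 1 (the weakest), 0.27 in bin 3 and -0.16 in the strongest bin. With loess offsets it is 0.16 in bin 3. Closed peaks reach 6.46% of a bin.

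Closed peaks sat among the strong peaks, and opened peaks leaned to them less. The strongest of 5 equal classes of peaks by abundance held 80.3% of the closed and 37.4% of the opened peaks, and 4.68% of this class was closed. The weakest class held 12.1% of the opened and 1.08% of the closed peaks. Of the strongest class 0.688% was opened, and of the weakest 0.222%. How far depth limited the calls in each class was not tested. Opened peaks had a median log2 fold change of 1.01 with TMM and 1.03 with loess offsets, against -0.78 and -0.67 for closed peaks. Their median width was 443 bp against 640 bp for closed peaks and 275 bp for all peaks. Opened and closed peaks lay 27569 and 23528 bp (median) from the nearest gene start. More than 90% of each, 92.5% and 90.3%, lay over 3 kb away, against 86.5% of all peaks.

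With both scalings peaks at gene starts were called less often than peaks in introns. Of the 168941 intronic peaks 0.419% were opened and 1.27% closed, and of the 26948 peaks within 1 kb of a gene start 0.134% and 0.571%. With loess offsets alone the order turned for rises, with 0.965% of the start peaks and 0.778% of the intronic ones higher, and held for falls (0.586% and 1.35%). Within the starts the CG-rich ones, typical of housekeeping promoters, were called least often. Of 14438 CG-rich start peaks 6 were opened and 21 closed, while of 12510 CG-poor ones 30 were opened and 133 closed. Here the scaling mattered most. With loess offsets alone 155 CG-rich start peaks rose, and with TMM alone 7. Peaks of low GC content were called more often in both directions, with 0.645% opened and 1.92% closed in the lowest of 5 classes by GC against 0.125% and 0.276% in the highest. Within 5 Mb of a chromosome end 0.185% were opened and 0.772% closed, against 0.396% and 1.23% elsewhere. Intergenic peaks more than 50 kb from any gene start were near the background of all peaks, with 0.387% and 1.15%. These rates are descriptions, since peaks are not replicates and the classes differ in strength. As shares of each library's counts, 0 of 23 classes differed between the groups at an adjusted p under 0.05 (exact permutation test over libraries), 1 on the counts and 11 on loess-scaled counts passed unadjusted. Gene starts took 31.3% ± 1.06 of the counts with DMSO and 30.4% ± 1.76 with belinostat (exact permutation test, n = 6, adjusted p 0.457). On loess-scaled counts the order turned, with 30.6% ± 0.29 and 31.2% ± 0.34 (exact permutation test, adjusted p 0.0608).

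Peaks were named among those with an edgeR average of 1 or more in log2 CPM and no overlap between the groups with TMM. These criteria were met by 134 rises and 2032 falls. The order of sizes given here therefore holds for these alone, and the lack of overlap is no finding. The largest such fall lay in an intron of the lncRNA gene ENSG00000287666 (chr11:126124171-126124869), 61186 bp from the start of CDON, which encodes a cell-surface co-receptor for hedgehog ligands. Its log2 CPM was 2.36, 3.33 and 3.84 (lowest, median and highest of 6) with DMSO and 0.63, 0.95 and 1.34 with belinostat. All belinostat libraries were below all DMSO libraries, and the log2 fold change was -2.41 ± 0.24 (SE, edgeR adjusted p 3.69e-10) with TMM and -2.29 (adjusted p 0.000415) with loess offsets. With all 18 libraries scaled together, mean log2 CPM was 3.78 without stimulation, 3.08 with DMSO and 0.90 with belinostat. The next largest fall lay on the same chromosome, in an intron of KIRREL3 (chr11:126459555-126460178), whose product is a cell adhesion molecule of the immunoglobulin family. Here log2 CPM was 3.53, 3.86 and 4.07 with DMSO and 1.41, 1.87 and 2.34 with belinostat, again without overlap. The log2 fold change was -1.99 ± 0.17 (SE, edgeR adjusted p 2.15e-18) and -1.85 with loess offsets, and the mean in unstimulated cells was 3.83 against 3.72 and 1.80 on the 18-library scale. Over the whole KIRREL3 locus the log2 fold change with loess offsets was -0.13.

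The other 6 largest falls were also distal. An intronic peak of CLMN (chr14:95206470-95206950), the gene of the calponin-like protein calmin, had log2 CPM of 1.19, 2.06 and 2.54 with DMSO and -0.46, 0.35 and 0.84 with belinostat. Its log2 fold change was -1.92 ± 0.27 (SE, edgeR adjusted p 1.39e-07) with TMM. CLMN was also among the genes with most closed peaks, 6 of its 50. An intronic peak of EDA2R (chrX:66622184-66622773), which encodes a receptor of the TNF receptor family, went from a median of 2.27 to 0.66 (log2 fold change -1.87 ± 0.24, SE, edgeR adjusted p 2.64e-09). Intronic peaks of MOB3B (chr9:27414148-27414832) and of SNCAIP (chr5:122352376-122352651), the gene of the synuclein-binding protein synphilin, changed by -1.86 ± 0.22 and -1.78 ± 0.30 on the log2 scale. The remaining pair was intergenic, 38165 bp from the start of TRABD2B, the nearest protein-coding gene (chr1:48035361-48035738), and 42546 bp from that of MATN1-AS1 (chr1:30675631-30676283), with changes of -1.86 ± 0.20 and -1.77 ± 0.27. MATN1, whose own start was 47627 bp away, encodes a cartilage matrix protein. All 8 calls stood with each library left out in turn.

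Among the rises that met the same criteria the largest lay upstream of HBB (chr11:5229604-5230189), its centre 502 bp before the outermost annotated start. Log2 CPM was 0.76, 1.08 and 1.21 with DMSO and 1.94, 2.23 and 2.99 with belinostat, without overlap. The log2 fold change was 1.47 ± 0.22 (SE, edgeR adjusted p 4.89e-07) with TMM and 1.53 (adjusted p 1.26e-07) with loess offsets. The unstimulated mean, on the 18-library scale, was 1.52 against 0.95 with DMSO and 2.27 with belinostat. A peak in an intron of the lncRNA gene PCAT1 (chr8:126579739-126580583) rose from -0.42, 1.50 and 2.00 to 2.20, 2.78 and 3.15 in log2 CPM (log2 fold change 1.39 ± 0.26, SE, edgeR adjusted p 0.00123). The peak in the flank of TMCC2 (chr1:205226441-205226824), whose letters are shown above, had log2 CPM of 0.11, 0.46 and 1.00 with DMSO and 1.34, 1.44 and 2.50 with belinostat (log2 fold change 1.36 ± 0.27, SE, edgeR adjusted p 0.000404). The COA7 intergenic peak with its 4 TEAD words (chr1:52669719-52670086) had -0.16, 0.63 and 0.68 with DMSO and 1.06, 1.66 and 1.94 with belinostat (log2 fold change 1.34 ± 0.27, SE, edgeR adjusted p 0.000614). The others were an intergenic peak near ALKAL1, a ligand of receptor tyrosine kinases (chr8:52575969-52576463, 1.36 ± 0.26), an exonic peak of DGLUCY (chr14:91159964-91160612, 1.35 ± 0.27), a peak 153342 bp from ATP6V1G3, its nearest protein-coding gene (chr1:198387260-198387945, 1.29 ± 0.27) and an intronic peak of DOCK2, a guanine exchange factor of blood cells (chr5:169921407-169921834, 1.28 ± 0.27).

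**Figure D2:**
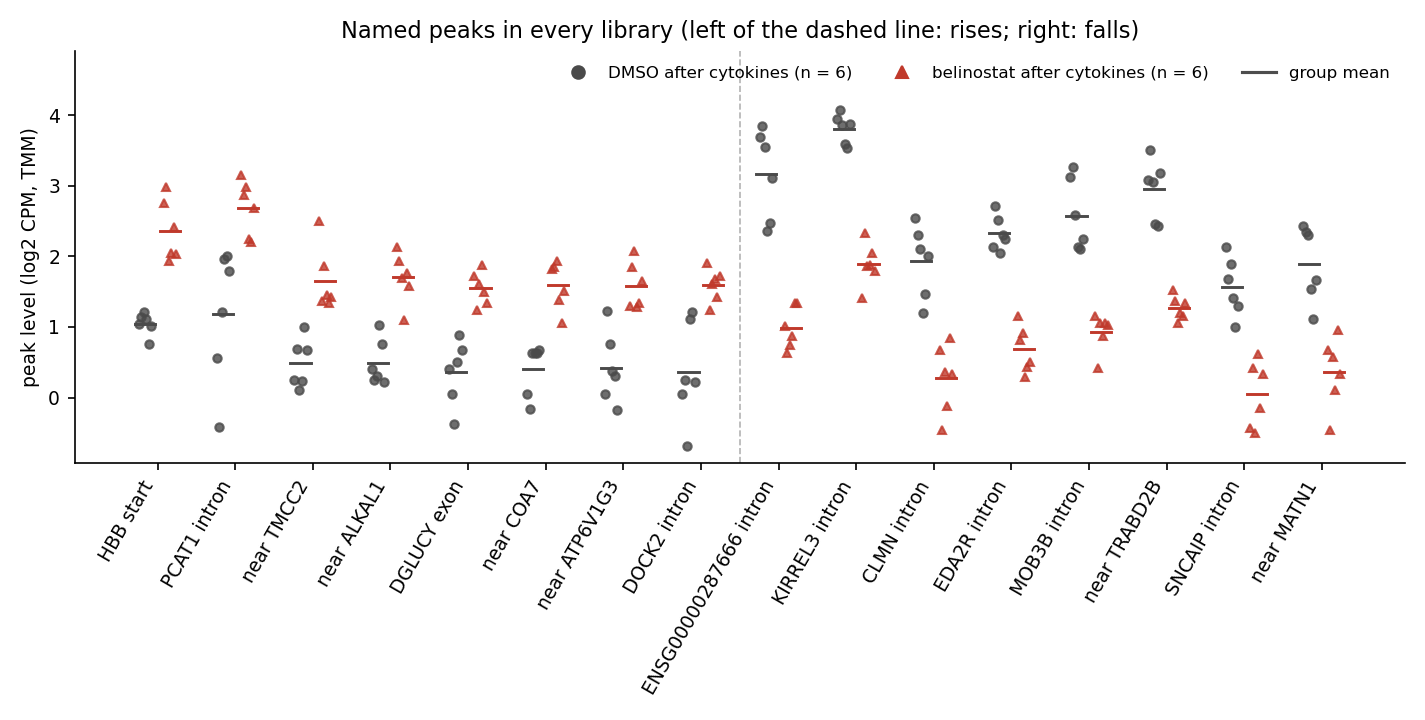
Log2 CPM in each of the 12 libraries at the 8 peaks with the largest rises and the 8 with the largest falls. Points are libraries, 6 DMSO and 6 belinostat, scaled with TMM, and lines are group means. The groups are apart at every peak, as the naming required, with medians from 1.08 to 2.23 at HBB and from 3.86 to 1.87 in KIRREL3.

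Accessibility was then summed over each gene's body and the 3 kb upstream of its start. Over 33596 loci of protein-coding genes and lncRNAs, 51 (0.152%) were higher and 531 (1.58%) lower with TMM, and 596 (1.77%) and 652 (1.94%) with loess offsets. Both scalings agreed on 49 (0.146%) and 443 (1.32%). The median log2 fold change over all loci moved from -0.07 to 0.03 between the scalings. Peaks within 1 kb of the start were also summed for 24823 genes. Of these, 42 (0.169%) rose and 181 (0.729%) fell with TMM, 384 (1.55%) and 175 (0.705%) with loess offsets, and 36 (0.145%) and 147 (0.592%) with both. Here the median moved from -0.10 to 0.04, and the share of rises among calls from 18.8% to 68.7%. The number of starts called higher therefore depended on the scaling far more than the number called lower. LncRNA genes made up 278 of the 443 loci lower with both and 102 of the 147 starts, against 14703 of the 33596 loci and 9040 of the 24823 starts tested. Without belinostat 1 the TMM counts rose to 612 and 5807 loci and to 283 and 3594 starts, and without DMSO 2 they were 11 and 181 loci and 21 and 107 starts.

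CCL11 showed the largest fall of any protein-coding locus that met the naming criteria. It encodes eotaxin, which attracts eosinophils. Its single peak, at the start of the gene on chromosome 17 (34285742 to 34288334, forward strand), had log2 CPM of 2.34, 2.43 and 2.74 with DMSO and 0.19, 1.07 and 2.01 with belinostat. The log2 fold change was -1.51 ± 0.22 (SE, edgeR adjusted p 0.000143 over loci) and -1.43 (adjusted p 2.7e-05) with loess offsets. All DMSO libraries were above all belinostat libraries, which spread widely among themselves, and the mean in unstimulated cells was 2.74 against 2.40 and 0.93. CCL7, the neighbouring gene of a monocyte chemoattractant (34270221 to 34272242), had log2 CPM of 2.16, 2.46 and 2.69 with DMSO and 1.37, 1.83 and 1.90 with belinostat. Its log2 fold change was -0.72 ± 0.17 (SE, edgeR adjusted p 0.0224) and -0.63 (adjusted p 0.0263) with loess offsets, and the unstimulated mean was 2.33 against 2.34 and 1.67. The CCL7 call was less firm than that of CCL11. It was lost with TMM without DMSO 2, DMSO 3, belinostat 2 or belinostat 3 (edgeR adjusted p 0.0564 to 0.0795), and at the start also without belinostat 6. With loess offsets the locus call was lost without any of 6 libraries, DMSO 2, 3 and 4 and belinostat 2, 3 and 6 (edgeR adjusted p up to 0.0787). The start call was lost with loess offsets without any of 8 libraries (adjusted p up to 0.0985). The 250 bases before its RefSeq start (GRCh38.p14, forward strand, chr17:34269971-34270220) are shown because the fallen peak lies at this start.
CCL7 upstream: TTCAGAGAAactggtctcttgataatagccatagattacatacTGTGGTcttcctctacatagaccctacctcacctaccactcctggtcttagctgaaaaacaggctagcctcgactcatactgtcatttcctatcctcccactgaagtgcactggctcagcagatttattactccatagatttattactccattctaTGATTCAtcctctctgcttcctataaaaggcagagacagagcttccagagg
They held 1 match each to the AP-1 word and to those listed for RUNX and STAT. Over 35116 RefSeq start regions cut to the same length, 6.57% held the AP-1 word, 11.0% the RUNX word and 6.57% the STAT word. The remaining 8 chemokine genes of the monocyte and lymphocyte list did not pass. Among them CCL13 had a log2 fold change of -0.72 ± 0.28 (SE, edgeR adjusted p 0.186), CCL2 of -0.24 (adjusted p 0.252) and CCL8 of 0.33 (adjusted p 0.549).

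The remaining named loci that fell had varied products. SERPINF1, which encodes the antiangiogenic factor PEDF, went from 5.44, 5.54 and 5.61 in log2 CPM to 4.67, 4.89 and 5.24 (log2 fold change -0.62 ± 0.10, SE, edgeR adjusted p 0.000283). At its start alone the change was -0.74 ± 0.13 (SE, adjusted p 2.08e-05). TNFSF10, the gene of the death ligand TRAIL, went from 4.30, 4.66 and 4.75 to 3.87, 3.97 and 4.12 (log2 fold change -0.63 ± 0.10, SE, edgeR adjusted p 0.000452). FAIM2, which encodes an inhibitor of Fas-mediated death, went from 6.42, 6.71 and 6.86 to 5.78, 5.90 and 6.00 (log2 fold change -0.79 ± 0.09, SE, edgeR adjusted p 2.24e-06), and MYRFL from 5.84, 6.04 and 6.17 to 5.12, 5.37 and 5.61 (-0.68 ± 0.10, SE, edgeR adjusted p 8.17e-05). Each of these TMM calls stood with any library left out. GOT1L1 (-0.70 ± 0.16, SE, edgeR adjusted p 0.0157) held in the same way. CRTAM, TNMD and FFAR2, the gene of a short-chain fatty acid receptor, had log2 fold changes of -0.64 ± 0.14, -0.63 ± 0.16 and -0.62 ± 0.17 with edgeR adjusted p of 0.0112, 0.0263 and 0.0443. The CRTAM call was lost without DMSO 2 (adjusted p 0.0562). With TMM that of TNMD was lost without any of 7 libraries, DMSO 2, 3 and 6 and belinostat 2, 3, 5 and 6. That of FFAR2 was lost with TMM without any of 9, all but DMSO 4, DMSO 5 and belinostat 1 (edgeR adjusted p up to 0.0958 and 0.13). With loess offsets the TNMD call was lost without any of 6 libraries and the FFAR2 call without belinostat 3 (edgeR adjusted p up to 0.0964 and 0.0522).

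With both scalings 20 protein-coding loci rose and 165 fell, while with loess offsets alone 352 rose and 291 fell. HBB met the criteria through the upstream peak described above. LINGO2, which encodes a neuronal leucine-rich repeat protein, had log2 CPM of 2.58, 3.10 and 3.43 with DMSO and 3.43, 3.74 and 3.99 with belinostat over 14 peaks (log2 fold change 0.63 ± 0.13, SE, edgeR adjusted p 0.00847). The highest DMSO and the lowest belinostat library were both at 3.43, without overlap with TMM, while with loess offsets the groups overlapped. The call was lost with loess offsets without belinostat 3 (edgeR adjusted p 0.0524). SLC10A1, the bile acid transporter of hepatocytes, had 0.04, 0.82 and 1.32 with DMSO and 1.50, 1.63 and 1.86 with belinostat (log2 fold change 0.93 ± 0.25, SE, edgeR adjusted p 0.0438). ALOX12B, MYL10 and PLCXD3 rose by 0.45 ± 0.11, 0.39 ± 0.11 and 0.39 ± 0.10 on the log2 scale. With TMM these 4 calls were lost without any of 9 libraries for SLC10A1, 6 for ALOX12B, 10 for MYL10 and 9 for PLCXD3, the highest edgeR adjusted p being 0.157. DMSO 2, DMSO 4, DMSO 6, belinostat 2 and belinostat 6 were among these libraries for all 4. With loess offsets ALOX12B, MYL10 and PLCXD3 held with any library left out (edgeR adjusted p 0.00172, 0.00262 and 0.0005 with all). SLC10A1 lost its loess call without any of 5 libraries (edgeR adjusted p up to 0.0853).

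At gene starts the falls outnumbered the rises with TMM and with both scalings, and the rises the falls with loess offsets alone, as counted above. IL19, a cytokine of the IL-10 family, went from 2.55, 2.88 and 3.18 in log2 CPM to 1.41, 2.14 and 2.33 (log2 fold change -0.89 ± 0.17, SE, edgeR adjusted p 0.000111). CDA, the gene of cytidine deaminase, went from 4.19, 4.53 and 4.82 to 3.58, 3.73 and 4.03 (-0.77 ± 0.13, SE, edgeR adjusted p 2.98e-06). TUSC3, part of an N-glycosylation complex, had a log2 fold change of -0.69 ± 0.14 (SE, edgeR adjusted p 0.000857). The TMM calls of these 3 starts stood with any library left out. Unstimulated means were 2.96 for IL19 and 4.61 for CDA, against 2.80 and 4.42 with DMSO and 1.92 and 3.67 with belinostat on the 18-library scale.

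The starts that rose included a matrix gene and a WNT target. VCAN, the gene of versican, had log2 CPM of 2.48, 2.98 and 3.15 at its start with DMSO and 3.26, 3.41 and 3.87 with belinostat (log2 fold change 0.61 ± 0.14, SE, edgeR adjusted p 0.0043, and 0.75, adjusted p 3.44e-05, with loess offsets). The call was lost with TMM without DMSO 6 (adjusted p 0.0561). SP5, a zinc finger factor induced by WNT signals, went from 2.08, 2.35 and 2.39 to 2.50, 2.89 and 3.33 (0.72 ± 0.16, SE, edgeR adjusted p 0.00263). ANO1, which encodes a calcium-activated chloride channel, went from 1.55, 2.08 and 2.39 to 2.45, 2.71 and 2.92 (0.67 ± 0.17, SE, edgeR adjusted p 0.0183). It lost its TMM call without DMSO 1 or belinostat 6 (adjusted p 0.11 and 0.0555). The start of MATN3, a cartilage matrix gene, had 0.56 ± 0.16 (SE, edgeR adjusted p 0.0404), lost with TMM without any of 9 libraries, all but DMSO 2, belinostat 1 and belinostat 4 (adjusted p up to 0.173), and held with loess offsets. The start of ENSG00000279073, a protein-coding gene that the annotation lists by identifier only, had 1.24 ± 0.33 (SE, edgeR adjusted p 0.0228), lost with TMM without DMSO 2, DMSO 3 or belinostat 4. It was a weak start, with mean log2 CPM of 0.08 with DMSO and 1.11 with belinostat. It met the level criterion on edgeR's own average (1.92), which for starts is scaled to counts at starts. Unstimulated means were 3.07 for VCAN, 2.07 for SP5 and 2.68 for ANO1, against 2.81, 2.20 and 1.96 with DMSO.

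The genes with most closed peaks had them spread over many peaks. LRMDA had 11 closed of 166 peaks and TENM4, a teneurin adhesion protein gene, 11 of 188. SH3PXD2B, an adaptor of matrix-degrading podosomes, had 6 of 40, CLMN 6 of 50 and GLIS1, a zinc finger factor related to GLI proteins, 6 of 63. ZFHX3 also had 6, of 171. Opened peaks were more scattered, with at most 3 in any gene. CBR4 had 3 of 27, PPM1H 3 of 55, TIAM2 3 of 79, NRXN3 3 of 84 and PALLD, which encodes the actin-bundling protein palladin, 3 of 94. TNR, LDLRAD4 and NCKAP5 also had 3, of 96, 125 and 161, since ties were ordered by fewest peaks. Over all peaks 0.368% were opened and 1.17% closed.

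Genes of fibroblast programmes were described in 37 lists, whose medians are read beside those of all 18893 protein-coding loci (-0.08 with TMM and 0.03 with loess offsets). Among the 6 neutrophil chemokine loci 0 passed in either direction in edgeR's test (2 were lower at an unadjusted p under 0.05 with TMM), with a median of -0.01 with TMM and 0.10 with loess offsets. CXCL2 had -0.39 ± 0.11 (SE, edgeR adjusted p 0.0604), CXCL1 -0.27 (adjusted p 0.227), CXCL5 0.10 (adjusted p 0.766) and CXCL8 0.13 (adjusted p 0.736). Of 10 monocyte and lymphocyte chemokine loci 2 fell, CCL11 and CCL7, and the list's median was -0.11 and 0.03. Of the 10 loci listed under the IL-6 family and colony-stimulating factors 0 passed (2 lower unadjusted with TMM, 0 with loess offsets), and the medians were -0.17 and -0.10. The smallest p in this list was that of IL24, which like IL19 is of the IL-10 family (-0.30 ± 0.09, SE, edgeR adjusted p 0.0954). IL6 and IL11 had -0.01 and -0.16. The prostaglandin list, with PTGS1 at -0.28 (adjusted p 0.141) and PTGS2 at -0.25 (adjusted p 0.217), had 0 of 12 (4 lower unadjusted with either scaling).

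Single members of the signalling lists fell. TNFRSF1A, the main receptor of TNF, was 7.33 ± 0.12 in log2 CPM with DMSO and 6.97 ± 0.18 with belinostat (SD, n = 6), with overlapping groups. Its log2 fold change was -0.36 ± 0.08 (SE, edgeR adjusted p 0.0192) and -0.17 (adjusted p 0.00606) with loess offsets. The TMM call was lost without any of 6 libraries, DMSO 2, 3 and 6 and belinostat 2, 3 and 5 (edgeR adjusted p 0.0577 to 0.0747). JUND, an AP-1 subunit, had -0.39 ± 0.10 (SE, edgeR adjusted p 0.0268) and -0.19 (adjusted p 0.0139), lost with TMM without the same 6 libraries (adjusted p up to 0.103) and with loess offsets without belinostat 3 or 5. BCL3, an atypical NF-kB inhibitor, passed with TMM only (-0.34 ± 0.09, SE, edgeR adjusted p 0.0428, loess 0.098), and lost that call without any of 10 libraries, all but DMSO 5 and belinostat 1. TNFRSF1B passed with loess offsets only (-0.21, edgeR adjusted p 0.0429), lost without any of 6 libraries. These were 1 of 13 NF-kB loci and 1 of 11 AP-1 loci with TMM, and 0 and 1 with loess offsets. The loci of the 5 inflammatory fibroblast factors TWIST1, GLI3, ETV4, RELB and PRDM1 had log2 fold changes of -0.05, -0.20, -0.11, -0.22 and -0.12, none past the test (lowest edgeR adjusted p 0.184 with TMM and 0.0852 with loess offsets, and 2 and 1 lower unadjusted). Single peaks of 2 of these loci fell with both scalings, both in introns and with groups that overlapped with TMM. The PRDM1 peak (chr6:106084433-106084999), also counted for ATG5, had log2 CPM of 3.96, 4.37 and 4.43 with DMSO and 3.53, 3.72 and 4.17 with belinostat (log2 fold change -0.55 ± 0.13, SE, edgeR adjusted p 0.007, and -0.39, adjusted p 0.00416, with loess offsets), and held with any library left out. PRDM1 encodes the repressor BLIMP1. The peak of GLI3, a hedgehog effector (chr7:42097740-42098149), had 1.66, 2.18 and 2.61 with DMSO and 0.97, 1.4 and 1.70 with belinostat (-0.89 ± 0.21, SE, edgeR adjusted p 0.00669, and -0.82, adjusted p 0.0127, with loess offsets). It was lost with both scalings without DMSO 2 and with loess offsets also without belinostat 2 (edgeR adjusted p up to 0.068). Unstimulated means were 4.69 and 2.10, against 4.21 and 2.09 with DMSO and 3.68 and 1.28 with belinostat on the 18-library scale.

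Of the matrix lists that of the metalloproteinases and their inhibitors had the lowest median. Of 13 loci 10 were below 0 with both scalings, where 71.7% of all protein-coding loci were below 0 with TMM and 38.5% with loess offsets. The list's median was -0.22 with TMM and -0.15 with loess offsets, and 2 passed with both. MMP14, the membrane-bound collagenase, was 6.62 ± 0.11 in log2 CPM with DMSO and 6.15 ± 0.17 with belinostat (SD, n = 6), without overlap. Its log2 fold change was -0.47 ± 0.09 (SE, edgeR adjusted p 0.00251) and -0.30 (adjusted p 0.000149) with loess offsets, and the TMM call held with any library left out. MMP13, a secreted collagenase, had -0.48 ± 0.11 (SE, edgeR adjusted p 0.017) and -0.32 (adjusted p 0.0436), lost with TMM without DMSO 2 or belinostat 2 and with loess offsets without any of 9 libraries, all but DMSO 5, DMSO 6 and belinostat 5. MMP1 and MMP3 had -0.33 (edgeR adjusted p 0.118) and -0.29 (adjusted p 0.314), and MMP11 rose with loess offsets only (0.26, adjusted p 0.00992). Of 17 collagen loci 1 fell with each scaling, but not the same one. COL7A1 fell with TMM (-0.31, edgeR adjusted p 0.0459), a call lost without any of 10 libraries, all but DMSO 4 and belinostat 1, and COL15A1 with loess offsets (-0.12, adjusted p 0.042), lost without any of 9. LOX, the collagen-crosslinking enzyme, rose with loess offsets only (0.30, edgeR adjusted p 0.0126). So did the starts of COL8A1 (0.49, edgeR adjusted p 0.00263) and COL12A1 (0.19, adjusted p 0.0461), the latter lost without any of 8 libraries. The 14 contractile loci had 0 calls (1 lower unadjusted with TMM, 3 higher with loess offsets), with ACTA2 at -0.12.

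**Figure D3:**
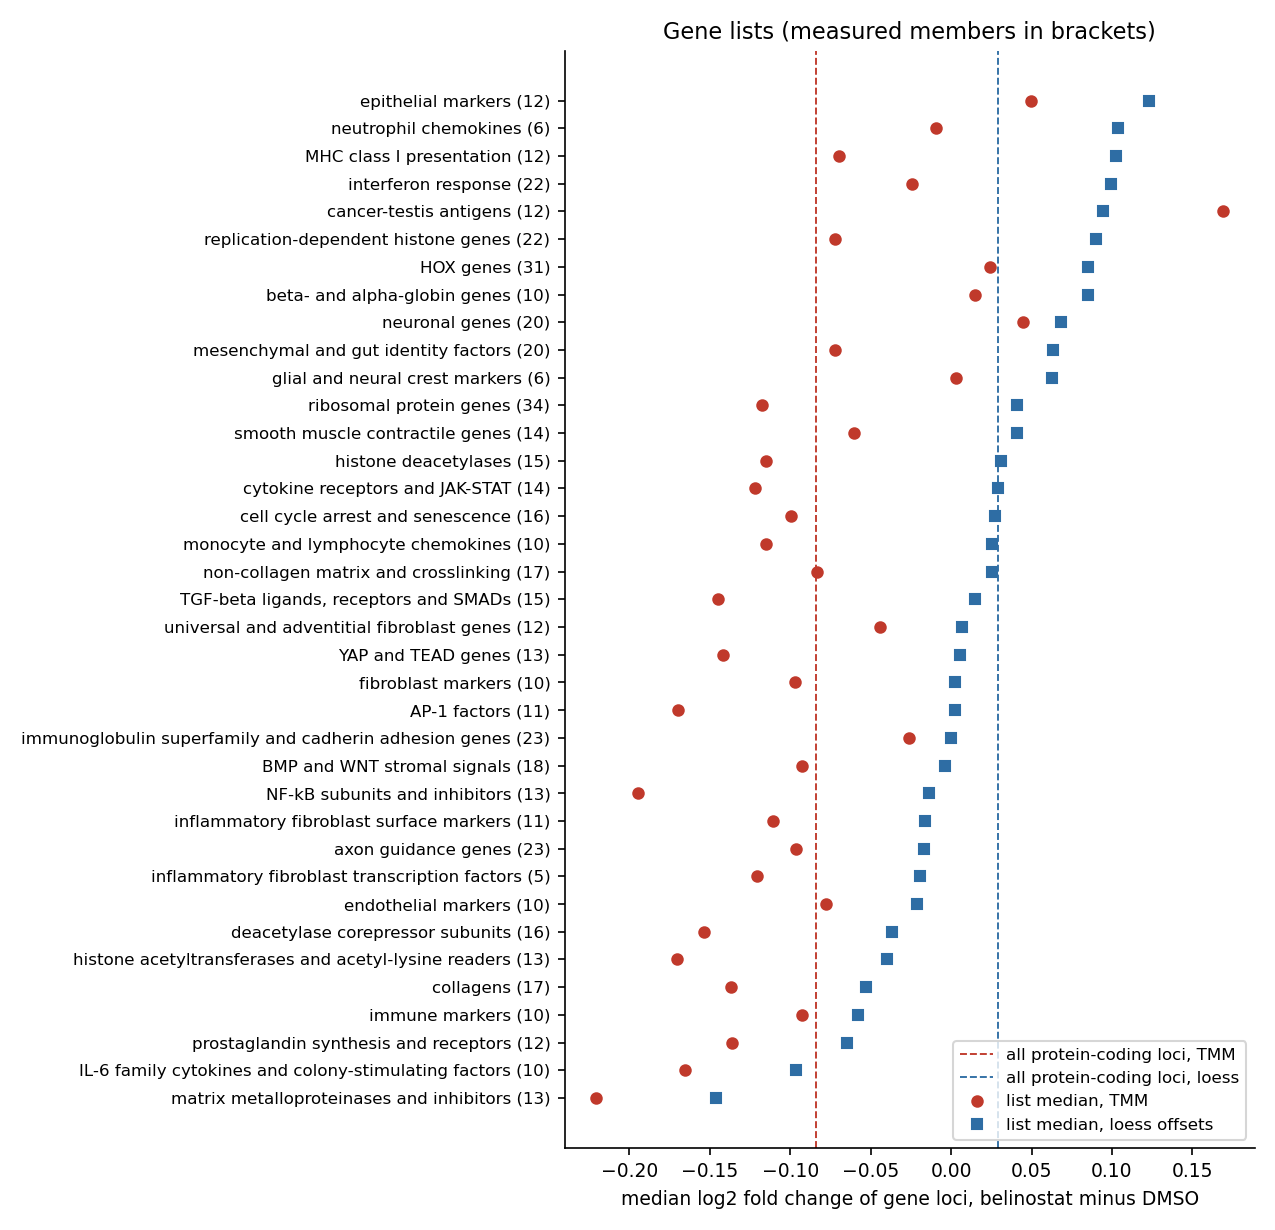
Median log2 fold change (belinostat over DMSO) of the gene loci in each list, with TMM and with loess offsets, beside the median of all protein-coding loci. The matrix metalloproteinases lie at -0.22 and -0.15, against -0.08 and 0.03 over all protein-coding loci.

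Further members passed in lists of signalling, identity and chromatin genes. C7, a complement gene of universal fibroblasts, fell by 0.51 on the log2 scale (SE 0.10, edgeR adjusted p 0.00352) and had -0.41 (adjusted p 4.41e-05) with loess offsets. GREM1, a secreted BMP antagonist, had -0.46 ± 0.12 (SE, edgeR adjusted p 0.0278) and -0.34 (adjusted p 0.00443), lost with TMM without any of 7 libraries (DMSO 2, 3 and 6, belinostat 2 to 5). SMAD7, the inhibitory SMAD, rose with loess offsets (0.36, edgeR adjusted p 2.39e-08) and had 0.22 with TMM (adjusted p 0.192). In the same TGF-beta list the starts of SMAD6 (0.19, edgeR adjusted p 0.0146, lost without belinostat 5) and LTBP1 (0.36, adjusted p 0.00424) rose with loess offsets only, and that of the receptor TGFBR2 fell (-0.19, adjusted p 0.048), lost without any of 8 libraries. NOG, a BMP antagonist like GREM1, rose over its locus with loess offsets only (0.25, edgeR adjusted p 0.0338), lost without any of 6 libraries. In the YAP and TEAD list ANKRD1 rose at its start, from 2.16 ± 0.43 to 2.78 ± 0.31 in log2 CPM (SD, n = 6), with 0.61 ± 0.17 (SE, edgeR adjusted p 0.037) and 0.71 (adjusted p 0.00489). Without any of 6 libraries, DMSO 1, 2 and 4 and belinostat 2, 3 and 6, the TMM call was lost. CCN2 rose at its start with loess offsets only (0.21, edgeR adjusted p 0.0148, and 0.00 with TMM), lost without DMSO 1 or belinostat 1. The start of TEAD3 fell with loess offsets only (-0.15, edgeR adjusted p 0.0453, and -0.35, adjusted p 0.0945, with TMM), lost without any of 7 libraries. The medians of that list of 13 loci were -0.14 and 0.01. ISG20, an interferon-induced exonuclease, fell (-0.44 ± 0.09, SE, edgeR adjusted p 0.00735, and -0.25, adjusted p 0.0127) as 1 of 22 interferon loci. PECAM1, used here as an endothelial marker, fell over its 22 peaks (-0.44 ± 0.09, SE, edgeR adjusted p 0.00502, and -0.40, adjusted p 2.46e-05), while its start, at 0.46 ± 0.47 in log2 CPM with DMSO, had 0.15 (adjusted p 0.834). KDR, of the same list, rose over its locus with loess offsets only (0.58, edgeR adjusted p 0.0389), lost without any of 8 libraries. PDGFRA, a fibroblast marker, fell at its start (-0.53 ± 0.13, SE, edgeR adjusted p 0.00776), lost with both scalings without DMSO 2, DMSO 3 or belinostat 4. The start of CDH1, the epithelial cadherin, had -2.53 ± 0.62 (SE, edgeR adjusted p 0.00926) at means of only 0.08 and -1.32 in log2 CPM, lost with TMM without belinostat 5 or belinostat 6. Over whole loci no epithelial marker fell, and KRT8 (0.23, edgeR adjusted p 0.0298) and VIL1 (0.32, adjusted p 0.00894) rose with loess offsets only, lost without any of 7 libraries and without belinostat 5. Other members past the test with loess offsets only included the loci of GADD45B (0.21), SEMA3A (-0.17), CADM2 (0.52) and RPL23 (0.28) and the start of CDH2 (0.31), with edgeR adjusted p of 0.0231 to 0.0397, each lost without 4 to 8 single libraries.

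Genes of the drug's own target family did not pass. Of 15 histone deacetylase loci 0 passed in edgeR's test (5 lower at an unadjusted p under 0.05 with TMM and 1 with loess offsets), with medians of -0.12 and 0.03, and HDAC1 and HDAC2 had 0.01 and -0.05. Among 13 acetyltransferase and reader genes the starts of CREBBP and BRD3 fell. CREBBP, which encodes the acetyltransferase CBP, was 4.56 ± 0.06 in log2 CPM at its start with DMSO and 3.94 ± 0.36 with belinostat (SD, n = 6), without overlap. Its log2 fold change was -0.59 ± 0.13 (SE, edgeR adjusted p 0.00116) and -0.46 (adjusted p 0.000349) with loess offsets, and the TMM call held with any library left out. BRD3, a bromodomain reader of acetylated histones, had -0.49 ± 0.12 (SE, edgeR adjusted p 0.0152) and -0.32 (adjusted p 0.00648), lost with TMM without DMSO 4, belinostat 2, belinostat 3 or belinostat 5 (up to 0.135). Lists with 0 loci past the test with both scalings included the 31 HOX genes, 22 histone genes, 12 MHC class I genes and 20 neuronal genes. At an unadjusted p under 0.05 with TMM, these had 1 higher HOX locus, 2 lower histone loci, 0 MHC loci and 3 lower neuronal loci, and with loess offsets 6 higher, 2 higher, 4 higher and 1 lower. The globin list held HBB alone, with HBA2 at 0.50 (edgeR adjusted p 0.215) and HBG1 at -0.49 (adjusted p 0.225).

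The words held by distal peaks, more than 3 kb from any gene start, differed between opened and closed peaks. Of 289696 distal peaks 1140 were opened (0.394%) and 3523 closed (1.22%). AP-1 was in 18.7% of all, 11.5% of opened and 37.8% of closed distal peaks, and CEBP in 14.7%, 14.1% and 26.8%. The E-box CAGATG was in 27.0%, 20.6% and 42.7%. TEAD went the other way, with 22.0% of all, 42.1% of opened and 17.5% of closed peaks. RUNX differed little (23.6%, 24.1% and 28.3%), and the ZEB E-box (CACCTG) was less common in both opened (14.2%) and closed peaks (9.57%) than in all (22.9%). NF-kB words were rare, in 0.393%, 0.702% and 0.880%.

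The same words were then tested over libraries, by the share of each library's distal counts that lay in peaks with the word. The E-box CAGATG held 27.1% ± 0.14 of distal counts with DMSO and 26.3% ± 0.13 with belinostat (SD, n = 6 each), without overlap (exact permutation test, adjusted p 0.0498 over 23 words), and on loess-scaled counts the adjusted p was 0.0166. On the counts, 0.0498 is the smallest adjusted p that 1 word alone could reach in this permutation test. Since the groups did not overlap, they stayed apart with any of the 12 libraries left out. That the word passed each time, with log2 differences of -0.0462 to -0.0417, therefore adds no support. AP-1 held 26.3% ± 0.79 and 24.6% ± 0.87 (exact permutation test, n = 6 each, adjusted p 0.0853), and on loess-scaled counts 26.1% ± 0.52 and 24.9% ± 0.34 (adjusted p 0.0166). CEBP, at 16.9% ± 0.34 and 16.2% ± 0.50, and NF-kB had the same adjusted p of 0.0853 by exact permutation on the counts, and 0.0597 and 0.0166 on loess-scaled counts. TEAD held 24.0% ± 0.92 and 24.9% ± 0.94, a difference within the spread (exact permutation test, n = 6 each, adjusted p 0.309, and 0.232 on loess-scaled counts). Without belinostat 1 the number of words past the test went from 1 to 9, of which 8 were lower and 1 higher, and without DMSO 3 to 2. For the words named here the differences were small, at most 0.095 in size on the log2 scale for AP-1.

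**Figure D4:**
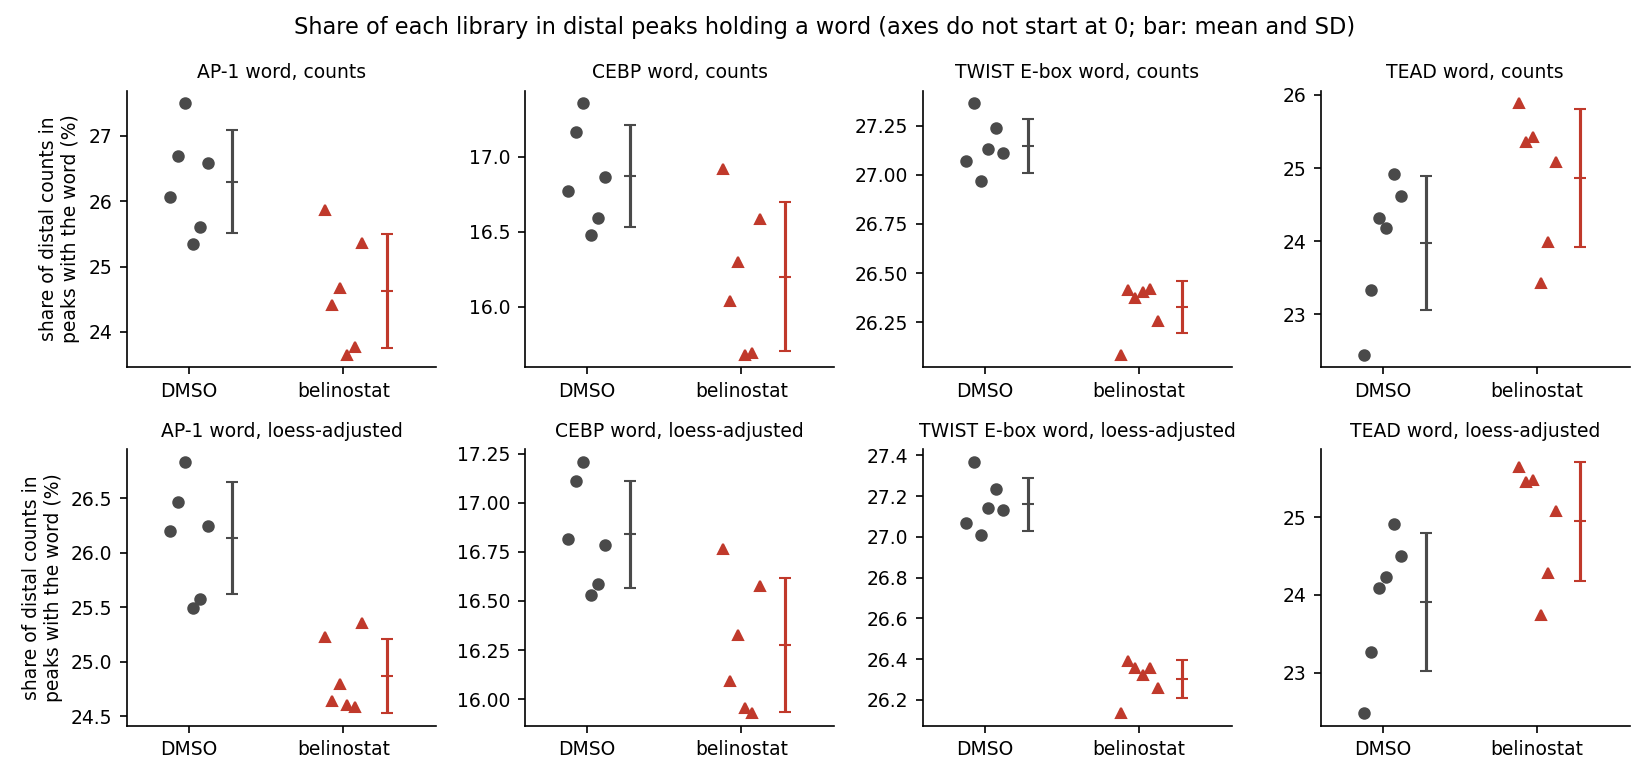
Percent of distal counts in peaks with the word, for each of the 6 DMSO and 6 belinostat libraries, for AP-1, CEBP, the E-box CAGATG and TEAD. The upper panels use counts and the lower loess-scaled counts, points are libraries, bars are means with SD, and the y axes do not start at 0. For the E-box CAGATG the means are 27.1% and 26.3% without overlap, and for TEAD 24.0% and 24.9% with overlap.

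Since closed peaks were strong peaks, the words were also compared inside the strongest of the 5 abundance classes, a choice made after the data had been seen. Of its 45624 distal peaks 0.921% were opened and 6.15% closed. The TEAD word was in 25.8% of them, in 50.5% of the 420 opened and in 18.4% of the 2808 closed. AP-1 was in 29.3%, 10.7% and 39.0%, and the E-box CAGATG in 27.1%, 20.7% and 42.4%. Peaks with TEAD and no AP-1 word were opened at 2.23%, while peaks with AP-1 were opened at 0.337% and closed at 8.19%. Peaks with CEBP were closed at 8.57% and those with the E-box at 9.65%. Where these words were combined the share was higher, 12.1% for AP-1 with the E-box, 12.9% for CEBP with the E-box and 15.0% for all of them, against 3.74% for the 19405 peaks with none. These combinations, chosen after the shares had been seen, are descriptions.

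The share closed or opened followed the number of copies. With 0, 1, 2 and at least 3 copies of the E-box 4.86%, 8.64%, 14.7% and 19.2% were closed. With the same numbers of TEAD words 0.614%, 1.50%, 3.21% and 4.51% were opened and 6.76%, 4.72%, 3.09% and 0.410% closed. For AP-1 the closed share was 5.31%, 8.03%, 8.98% and 9.91%. The last class is small, with 224, 244 and 212 peaks. CEBP rose from 5.61% to 8.35% and 10.5% and was 7.07% among the 99 peaks with at least 3. By the copy nearest to the centre, the TEAD word lay nearer to the middle in opened peaks and the E-box farther from it. A TEAD word lay within 50 bp of the centre in 51.9% of opened, 41.8% of all and 37.1% of closed peaks that had one, and the E-box in 28.7%, 39.1% and 43.0%. For AP-1 these shares were 44.4%, 44.9% and 41.5%, and for CEBP 41.8%, 38.5% and 39.6%. The opened peaks numbered 212 for TEAD and 87 for the E-box. A peak with more copies can have one nearer to its centre, and this was not separated from position.

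**Figure D5:**
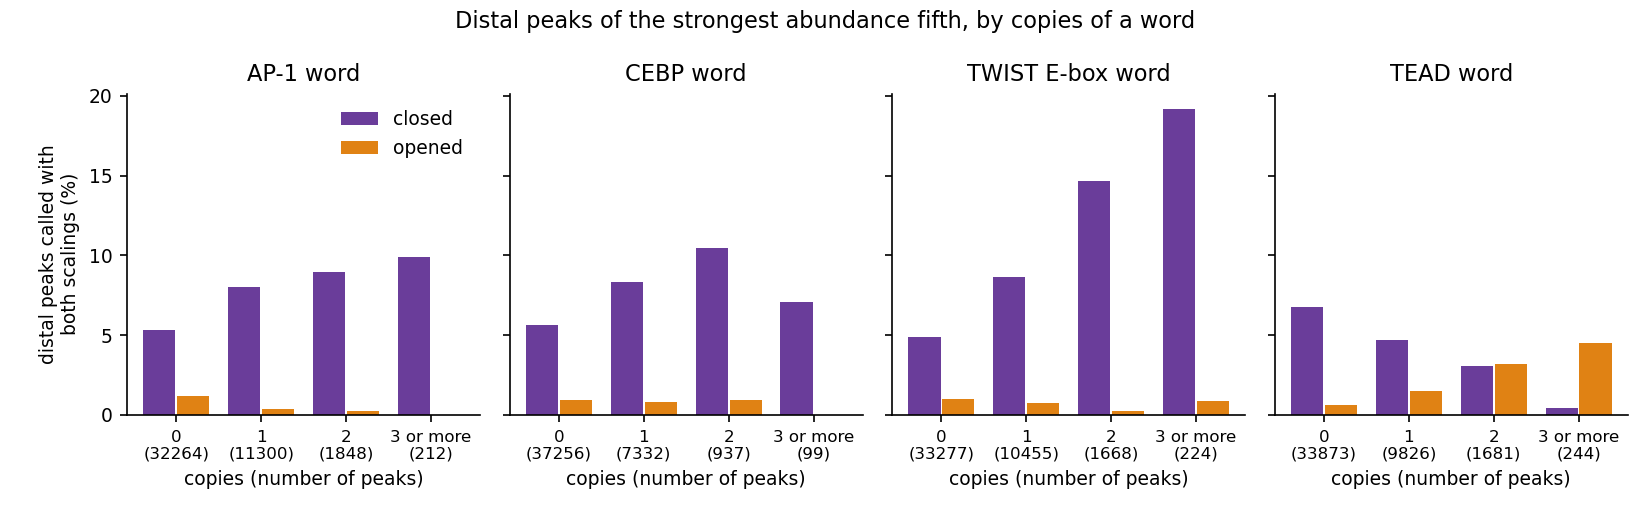
Percent of distal peaks in the strongest abundance class that were opened or closed (y axis) against the number of copies of each word (x axis, 0 to at least 3), for AP-1, CEBP, the E-box CAGATG and TEAD. Closed peaks rise from 4.86% to 19.2% with copies of the E-box, and opened peaks from 0.614% to 4.51% with copies of TEAD.

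Over windows of 1 Mb, none of 2697 passed with TMM (0%, with 51 higher and 575 lower at an unadjusted p under 0.05, and 3 and 26 with DESeq2). With loess offsets 75 (2.78%) were higher and 80 (2.97%) lower, by a median of only 0.11 on the log2 scale. The windows named here were chosen after their values were seen. The largest rises were on chromosome 4 from 116000001 to 117000000, by 0.41 (edgeR adjusted p 0.0416, and 0.0835 with TMM), and on chromosome 13 from 90000001 to 91000000, by 0.37 (adjusted p 0.0475). The largest falls were both on chromosome 9, where the window from 7000001 to 8000000 fell by 0.28 (edgeR adjusted p 0.0142) and that from 80000001 to 81000000 fell by 0.25 (adjusted p 0.0328). Changes over long stretches of a chromosome were small beside those of single peaks.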

How the data were processed

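ATAC-seq libraries of Ccd18-Co fibroblasts were grouped by their titles, and 12 libraries were compared, 6 belinostat against 6 DMSO. The authors deposited a table of fragment counts, unscaled, with 1 column for each library and 1 row for each of 334857 peaks. Per the study's methods it came from reads aligned to hg38, MACS2 peaks of all conditions joined into 1 set, and counting of fragments in that set. The processing notes of the submitters also name ChIPseeker 1.34.1. The authors scaled libraries on background bins, which need reads outside peaks. These were not used here, so TMM factors and loess offsets computed from the peaks took their place. Differences in background between libraries can thus reach the fold changes.

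Counts were tested with edgeR 4.0.16 (glmQLFit and glmQLFTest, trended dispersion, robust) in R 4.3.3, with loess offsets fitted per library against peak abundance with limma 3.58.1, and with DESeq2 1.42.0 as an alternative. No peak failed the study's abundance filter. Log2 CPM used a prior count of 2. P-values were adjusted over all features of a kind at a threshold of 0.05, and the scripts were tested on simulated data. Gene positions came from GENCODE release 44 of the same build (20033 protein-coding genes and 18866 lncRNAs), and counts of overlapping genes share peaks. Peak coordinates are as in the deposited table, which does not state whether starts count from 0 or 1, while printed sequences count from 1. Upstream sequences are from RefSeq, whose table held CCL7 among the named chemokines and no entry for CCL11. A class of repeat-rich peaks was planned and could not be computed, because the reference is not soft-masked. Shares of counts were compared by exact two-sided permutation over libraries, 924 splits, and adjusted over 23 classes or 23 words. Words were searched on both strands in the central 300 bp.

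Named peaks, loci and starts were the largest rises and falls (8 and 8, 10 and 10, 8 and 8) with an adjusted p under 0.05 in the same direction with both scalings, a mean level of 1 or more in log2 CPM, and groups that did not overlap with TMM. That mean was edgeR's average, scaled to the counts summed over features of the same kind. For loci and starts it therefore differs from the printed log2 CPM. With loess offsets the groups overlapped at the loci of LINGO2, CRTAM and TNMD and at the start of TUSC3. Loci and starts were named among protein-coding genes. 1 start that met these criteria is not reported here. The rule for windows, a pass with both scalings, was met by none, and windows that passed with loess offsets only are named instead. Also named were the 5 genes with most opened and with most closed peaks (ties in favour of fewer peaks), the study's 5 factors, and list members that passed with either scaling or had the smallest p of a list. The comparison, the named members, the 37 gene lists and the words were chosen with earlier results of these data known.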

Additional observations from a re-analysis of the deposited data

Results flagged for a closer look

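Of 114 groups of 6 libraries examined, 5 had a library far from the rest by Dixon's criterion, and chance alone gives about 1 such group in 20. Belinostat 1 had 5.35% of peaks at a count of 0 against 0.505% to 2.24% in the other belinostat libraries. At CCL7, locus and start, which share 1 peak, belinostat 2 was at 1.37 in log2 CPM against 1.73 to 1.90 in the others, and CCL7 lost its call without that library (edgeR adjusted p 0.0795 at the locus). At the FFAR2 locus belinostat 3 was at 1.70 against 1.98 to 2.15. At the start of ENSG00000279073 belinostat 4 was at 1.54 against 0.95 to 1.14, and without it the log2 fold change was 1.12 (edgeR adjusted p 0.125). What set these libraries apart was not tested.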

How the results depend on the processing

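The 64 peaks, loci and starts examined, all past the test with TMM, kept their direction in all 2303 comparisons with an alternative, and 2002 also kept their side of the threshold, with 28 features doing so throughout. Most were chosen for the same direction with both scalings and for groups without overlap. The alternatives reuse the same libraries, so the kept direction is no further support. The counts of calls moved more. Peaks opened numbered 1583 with TMM, 2503 with loess offsets, 2902 with library totals, 307 with TMM over the weaker 50% of peaks, 2761 with loess and GC offsets, 535 with DESeq2 and 987 after thinning to the shallowest library. Peaks closed, 4986 with TMM, were 3070 after thinning with loess offsets. Loci called higher, 51 with TMM, were 596 with loess offsets, 365 with totals, 84 with TMM over 10 kb bins, 2 with the weaker peaks, 515 with loess and GC, 86 with all 18 libraries, 27 thinned, 379 thinned with loess, and 94 with each peak given to the nearest start. Loci called lower, 531 with TMM, were 158 with the weaker peaks, 813 with 18 libraries and 838 by nearest start. Starts called higher, 42 with TMM, were 384 with loess offsets, 130 with totals, 2 with the weaker peaks, 124 with loess and GC, 10 with DESeq2, 185 thinned with loess and 84 within 3 kb, and starts called lower, 181 with TMM, were 278 with totals, 77 with the weaker peaks, 89 with DESeq2, 116 thinned, 120 thinned with loess and 334 within 3 kb. Windows called higher and lower, 0 and 0 with TMM, were 75 and 80 with loess, 107 and 98 with totals, 2 and 16 with 10 kb bins, 206 and 153 with loess and GC, 7 and 67 with 18 libraries, 3 and 26 with DESeq2, 41 and 61 thinned with loess, and 0 and 1 for 5 Mb windows. Words past the test, 1 on the counts, were 3 with loess, 2 over all peaks and 5 in the strongest abundance class. The cause was not tested. With loess scaling the log2 difference in share turned from -0.0447 to 0.0265 for gene starts and from -0.0468 to 0.0340 for wide peaks, and over all peaks that of RUNX turned from -0.00981 to 0.00417.

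With 1 library left out in turn, TMM gave 681 to 2807 opened and 2896 to 8323 closed peaks, 11 to 612 and 181 to 5807 loci, 21 to 283 and 107 to 3594 starts, and 0 to 68 and 0 to 1090 windows, the highest counts without belinostat 1. Loess offsets gave 1524 to 3180 and 2827 to 4600 peaks, 356 to 685 and 427 to 720 loci, 231 to 356 and 128 to 184 starts, and 20 to 107 and 23 to 85 windows. Words past the test were 1 to 9.

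Libraries with the same replicate number did not deviate together (correlations of -0.13 to 0.10 with TMM, and 1 of 6 correlated best with its own number), so no pairing by number was seen. Whether the numbers mark a shared culture or batch cannot be told from this or from the titles. With the replicate number as a block, TMM gave 877 peaks opened, and loess offsets gave 3046 peaks closed, 407 loci higher, 326 starts higher and 1 and 1 windows.

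Thinning, given above, is the measure of what depth limits here, and it was not split by peak strength.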
